A study of Homo sapiens with 4 samples.

Results

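The genes described here encode the nuclear part of the mitochondrial respiratory chain and ATP synthase. They were chosen by name, as all gene symbols of the deposited tables that begin with NDUFA, NDUFB, NDUFC, NDUFS or NDUFV and a number, with SDHA to SDHD, UQCR, COX4 to COX8 or ATP5, together with CYC1. The pattern found 96 of 23228 genes. By their known roles, 82 encode subunits, 7 of them tissue-restricted or conditional isoforms, and 14 are other genes that share the names: pseudogenes and copies, readthrough transcripts, assembly factors and neighbours. RNA sequencing had compared MDA-MB-231 cells, an established line of triple negative breast cancer, in 2 groups with 2 libraries each, 1 group stably expressing a control short hairpin RNA (shRNA) and the other an shRNA against KDM1A, the histone H3 lysine 4 demethylase also called LSD1. In both groups the cells were the fraction sorted for aldehyde dehydrogenase activity with the ALDEFLUOR assay, grown in MammoCult medium and transduced with lentivirus. The labels name a single KDM1A shRNA and no rescue, so effects of losing KDM1A, other effects of that hairpin and differences between the stable cultures cannot be told apart. No label ties the 2 libraries of a group to separate cultures. The p-values therefore reflect the spread among these libraries alone, and that spread may be technical.

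The respiratory chain passes electrons from NADH through complex I and from succinate through complex II to ubiquinone. Complex III moves them on to cytochrome c, complex IV passes them to oxygen, and the proton gradient built by complexes I, III and IV drives complex V, the ATP synthase. Except for complex II, each complex joins subunits encoded in mitochondrial DNA to a larger number from the nucleus. None of the mitochondrially encoded genes was among the gene symbols used here, so the values below cover the nuclear side alone.

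Gene reads per library ranged from 23902900 to 26923678. KDM1A itself was counted with 4660 and 4059 reads under control shRNA (libraries 1 and 2) and with 561 and 649 under its own shRNA. It fell from 171 ± 4.73 to 24.3 ± 1.22 CPM, the reads scaled to a common library total by TMM (mean ± SD, n = 2; log2 fold change −2.81, SE 0.05, edgeR adjusted p = 2.2e-14). All 3 genes listed as deleted in MDA-MB-231 went against the line's label in the controls: CDKN2A had 323 and 329 reads there against 13 and 19, and MTAP and CDKN2B were likewise lower after knockdown, with a summed level of 23.2 and 25.4 CPM against 1.17 and 1.32. The 22 genes listed as typical of MDA-MB-231 were all detected and summed to 15700 and 15200 CPM in the controls and 17400 and 17600 CPM after knockdown. The 8 luminal genes summed to 759 and 765 CPM against 938 and 932 CPM, with 3 of the 6 tested called higher (AGR2, KRT19 and GATA3) and 3 lower (FOXA1, TFF1 and XBP1); ESR1 and PGR had at most 9 reads in any library. The 11 blood, endothelial and stromal genes summed to 169 and 164 CPM against 115 and 108 CPM, with 2 of the 8 tested called higher (LUM and PDGFRB) and 6 lower, DCN among them. The part of these differences between the cultures in the values below was not tested. None of the 275 genes that were lower by 16-fold or more is a respiratory chain gene.

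As a group, the respiratory chain genes changed little. Of all gene reads they took 0.880% and 0.881% under control shRNA and 0.867% and 0.881% under KDM1A shRNA (exact 95% binomial intervals 0.877% to 0.884%, 0.8774% to 0.8848%, 0.8632% to 0.8707% and 0.8769% to 0.8842%, which cover counting error only). In these bulk libraries, fewer cells of a type and less RNA per cell cannot be told apart. Of the 96 genes 87 had enough reads to be tested; 19 of them were called higher in KDM1A shRNA and 15 lower at an edgeR adjusted p under 0.05, and 53 were not called. Among all 14012 genes tested, 56.1% were called, 27.3% higher and 28.8% lower, against 39.1% of the respiratory chain genes, 21.8% higher and 17.2% lower. Among the genes with a mean of at least 5 CPM, fitted alone, the share called was 58.1%. Of the 82 respiratory chain genes in that fit, 13 were called higher and 20 lower. The median log2 fold change of the 87 was 0.02, beside −0.01 for all genes tested, and the median of its absolute size was 0.10 beside 0.24.

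The number of calls moved with single libraries. Fewer respiratory chain genes were called without KDM1A shRNA library 1 or 2. Fewer of all genes tested were called as well, but their loss was proportionally smaller. The respiratory chain median was 0.04 without library 1 and −0.01 without library 2, beside −0.01 for all genes tested in each. With the scale set by the median of the 22 listed MDA-MB-231 genes (called the rescaling below), the median of all genes moved to −0.20 and that of the respiratory chain genes to −0.18. Then 3 of the 87 respiratory chain genes were called higher (NDUFS6, SDHAP2 and SDHAP3) and 56 lower, beside 12.7% and 51.7% of all genes tested. Both medians moved by the same amount, since this setting subtracts 1 value from every gene.

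Among the 76 subunit genes tested, 15 were called higher and 14 lower, and none of the calls reached 1.5-fold, a size that 19.3% of all genes tested reached with a call. The changes ran from −0.38 to 0.38 on the log2 scale. The 95% interval of the log2 fold change lay wholly within 1.25-fold in either direction for 64 of the 76 (84.2%), against 36.3% of all genes tested, and within 2-fold for all 76. Interval width depends on read depth, and the sets were not matched for level. The subunit genes with intervals beyond 1.5-fold were ATP5E and COX7B2, both with few reads. Summed over the 82 subunit genes, the level was 8477 and 8450 CPM before and 8269 and 8416 CPM after knockdown, 98.6% of control on average; such a sum weights long and abundant transcripts more.

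**Figure D1:**
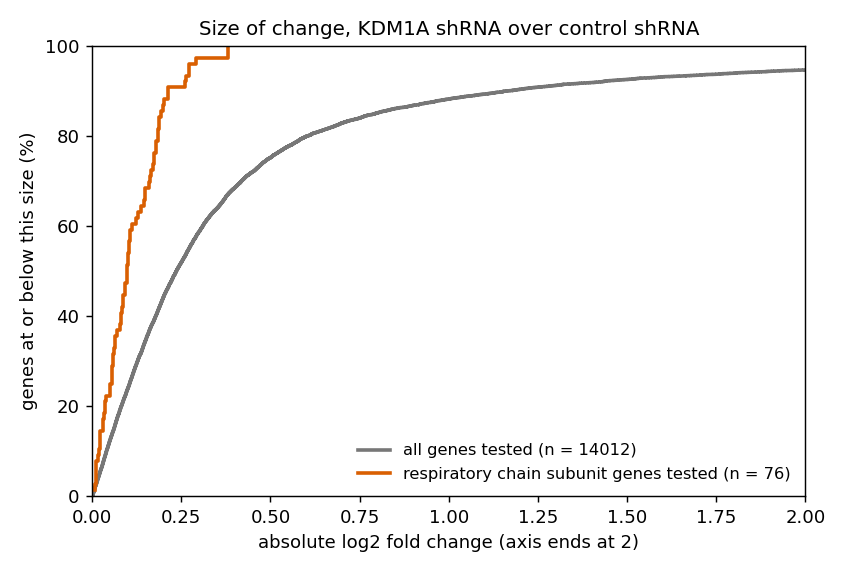
The cumulative share of genes (vertical axis, percent) whose absolute log2 fold change is at or below the value on the horizontal axis, for the 76 respiratory chain subunit genes and all 14012 genes tested. The subunit curve ends at 0.38, where all genes tested go on beyond the axis.

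Not a single complex moved in 1 direction. In complex I, 6 of 36 subunit genes were called higher and 4 lower, with a median of 0.02. In complex II 1 of 4 was called higher and 1 lower, in complex III 2 of 9 higher and 1 lower, in complex IV 2 of 12 tested higher and 3 lower, and in complex V 4 of 15 higher and 5 lower. The called share was lowest in complex I, 27.8%, and highest in complex V, 60%, beside 56.1% of all genes; these shares were not compared by a test. The summed levels of complexes I and III overlapped between groups. That of complex II was 104% of control, that of complex IV 97.7% and that of complex V 96.7%, with no overlap of the libraries, and for complex II the sum rests on 4 genes. Single genes without overlap made up 77.7% of all genes tested. The sums were not taken with the rescaling, which lowers every gene. The complex V sum went from 3223 and 3167 CPM to 3053 and 3125 CPM. Its most abundant gene, ATP5B, fell from 1150 to 993 CPM, a larger drop than that of the whole sum. Of the 15 genes of complex V, 8 lay above 0 and 7 below.

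**Figure D2:**
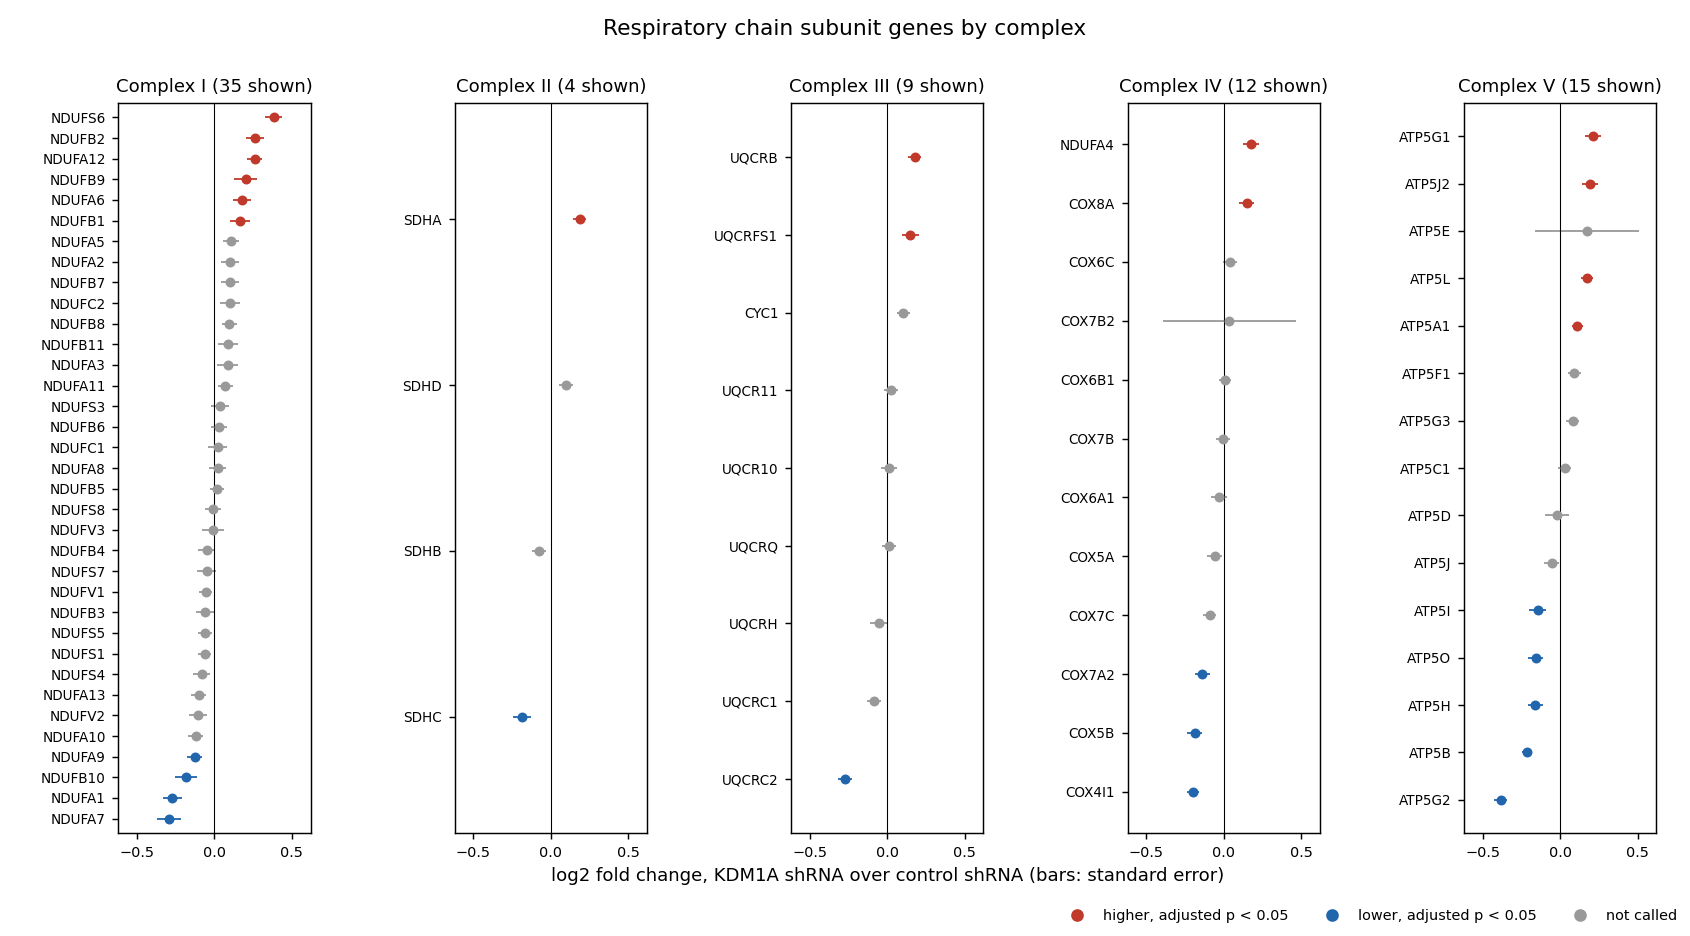
Log2 fold change of 75 of the 76 tested subunit genes (points; bars are the standard error), KDM1A shRNA over control shRNA, with 1 panel per complex and genes ordered by value. Called genes lie on both sides of 0 in all 5 panels, from −0.38 for ATP5G2 to 0.38 for NDUFS6; with the rescaling to listed MDA-MB-231 genes all points move left by 0.20.

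The 3 genes for the c ring of ATP synthase, ATP5G1, ATP5G2 and ATP5G3, went different ways. All 3 encode the same mature c subunit, which forms the rotating ring of the membrane part, behind different import sequences, and each has a promoter of its own. The stretches just before the RefSeq starts of ATP5G1 and ATP5G2, whose levels moved apart, and of NDUFS6, the subunit gene with the largest rise, are shown for that reason (250 bases each, 5′ to 3′, GRCh38.p14; chr17:48892537-48892786 plus strand, chr12:53676084-53676333 minus strand and chr5:1801157-1801406 plus strand). Capitals mark matches to the motifs searched, which are given after the sequences.
ATP5G1: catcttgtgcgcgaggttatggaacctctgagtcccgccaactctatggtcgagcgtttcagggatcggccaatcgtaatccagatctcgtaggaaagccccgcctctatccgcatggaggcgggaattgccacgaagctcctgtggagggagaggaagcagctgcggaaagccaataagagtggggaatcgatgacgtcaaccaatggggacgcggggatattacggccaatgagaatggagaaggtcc
ATP5G2: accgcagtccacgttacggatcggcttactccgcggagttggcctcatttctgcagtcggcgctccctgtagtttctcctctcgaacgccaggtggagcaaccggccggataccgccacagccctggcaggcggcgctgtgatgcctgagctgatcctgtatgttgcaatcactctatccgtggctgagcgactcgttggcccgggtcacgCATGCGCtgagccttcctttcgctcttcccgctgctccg
NDUFS6: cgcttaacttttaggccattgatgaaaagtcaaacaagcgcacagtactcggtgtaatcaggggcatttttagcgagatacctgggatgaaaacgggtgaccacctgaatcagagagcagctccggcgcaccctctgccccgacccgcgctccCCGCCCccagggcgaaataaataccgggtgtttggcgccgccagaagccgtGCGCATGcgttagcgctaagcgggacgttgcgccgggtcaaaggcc

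Promoters of respiratory chain genes are known for sites of NRF1, of the ETS factor GABP, of YY1 and of SP1, and the factor ERR alpha binds some of them. Each motif was searched on both strands of the 250 bases before the start: NRF1 by its full palindromic site, ETS as CCGGAAG, YY1 as ATGGCGG, SP1 as GGGCGG and an ERR monomer site as AAGGTCA. A shorter NRF1 core, CATGCGC, which can overlap the longer one, was added after these sequences had been seen. RefSeq promoters were matched for 71 of the 96 genes, 65 of them subunit genes; ATP5G3 and ATP5B were not matched. The NRF1 motif stood in 14 of the 65 subunit promoters (21.5%) and in 5.53% of all 27305 promoters, the short core in 18.5% against 3.96%, and the ETS motif in 24.6% against 8.82%. For YY1 the shares were 7.69% and 2.83%, for SP1 55.4% and 42.3%, and for the ERR monomer site 7.69% and 3.46%. By call, the NRF1 motif stood in 3 of 11 promoters of subunit genes called higher, 3 of 12 called lower and 7 of 39 not called; the short core stood in 2, 3 and 7 of them. ATP5G2, which fell, and NDUFS6, which rose, both hold the short core, and ATP5G1 holds none of the 6 motifs in this window. A match describes letters only.

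ATP5G2 (chromosome 12, 54026510 to 54071192, minus strand, GRCh37) had the largest fall of the subunit genes. Its reads numbered 4057 and 3560 under control shRNA and 2753 and 2939 after knockdown, or 151.5 and 146.8 CPM against 114.9 and 113.9. The groups lay well apart, at 76.7% of control (log2 fold change −0.38, SE 0.04, edgeR adjusted p = 2e-06). ATP5G1 (chromosome 17, 46970127 to 46973233, plus strand) had 76.51 and 82.57 CPM in the controls and 94.07 and 90.18 CPM after knockdown, higher in both KDM1A shRNA libraries (0.21, SE 0.05, adjusted p = 0.0028); leaving out KDM1A shRNA library 1 ended this call (0.18, adjusted p = 0.066), as did the rescaling (0.02). ATP5G3 (chromosome 2, 176040986 to 176046438, minus strand) was at 204.9 and 205.8 CPM against 209.0 and 225.3 CPM and was not called (0.08, 95% interval −0.01 to 0.17). ATP5G2 thus gave 35% and 33.7% of the reads of the 3 genes in the controls and 27.5% and 26.5% after knockdown, shares that do not depend on the scaling of libraries. Their summed level was 433 and 435 CPM against 418 and 429 CPM, 97.6% of control.

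The catalytic head of ATP synthase also held genes on both sides. ATP5B, which encodes the catalytic beta subunit (chromosome 12, 57031959 to 57039768, minus strand), was counted with 31028 and 27747 control reads and 23539 and 25875 after knockdown. Its level fell from 1150 ± 10.5 to 993 ± 14.1 CPM (SD, n = 2; −0.21, SE 0.03, adjusted p = 6.2e-05), with both KDM1A shRNA libraries below both controls. ATP5A1, for the alpha subunit that alternates with beta in the head, was at 616.5 and 595.3 CPM in the controls and 641.3 and 667.0 CPM after knockdown (0.11, SE 0.04, adjusted p = 0.017), a call lost without either KDM1A shRNA library and turned to −0.09 by the rescaling. Per 100 reads of ATP5B, ATP5A1 gave 53.2 and 52 reads under control shRNA and 65.2 and 66.5 under KDM1A shRNA, a ratio free of the scaling and with no overlap. ATP5C1, for the gamma shaft (0.03), and ATP5D, for the delta subunit (−0.02), were not called.

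In the peripheral stalk, which holds the head still, ATP5O, the OSCP subunit, fell from 138 ± 6.21 to 124 ± 3.70 CPM (−0.16, adjusted p = 0.0090) and ATP5H, subunit d, from 99.6 ± 4.10 to 89.1 ± 1.53 CPM (−0.16, adjusted p = 0.010). The call of ATP5O was lost without KDM1A shRNA library 2, and that of ATP5H without either KDM1A shRNA library. The other stalk genes, ATP5F1 (0.09, adjusted p = 0.064) and ATP5J (−0.06), were not called. Of the small membrane subunits, ATP5L, subunit g, was higher (184 ± 3.10 to 207 ± 2.25 CPM, 0.17), as was ATP5J2, subunit f (0.19), while ATP5I, subunit e, was lower (−0.14, adjusted p = 0.036). Leaving out KDM1A shRNA library 1 ended these 3 calls, library 2 those of ATP5J2 and ATP5I, and control library 1 that of ATP5I; the rescaling turned ATP5L to −0.03 and ATP5J2 to −0.01. Neither part of the enzyme was uniform, with 1 higher and 1 lower of 5 genes of the head and 3 higher and 4 lower of 10 of the membrane part and stalk.

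**Figure D3:**
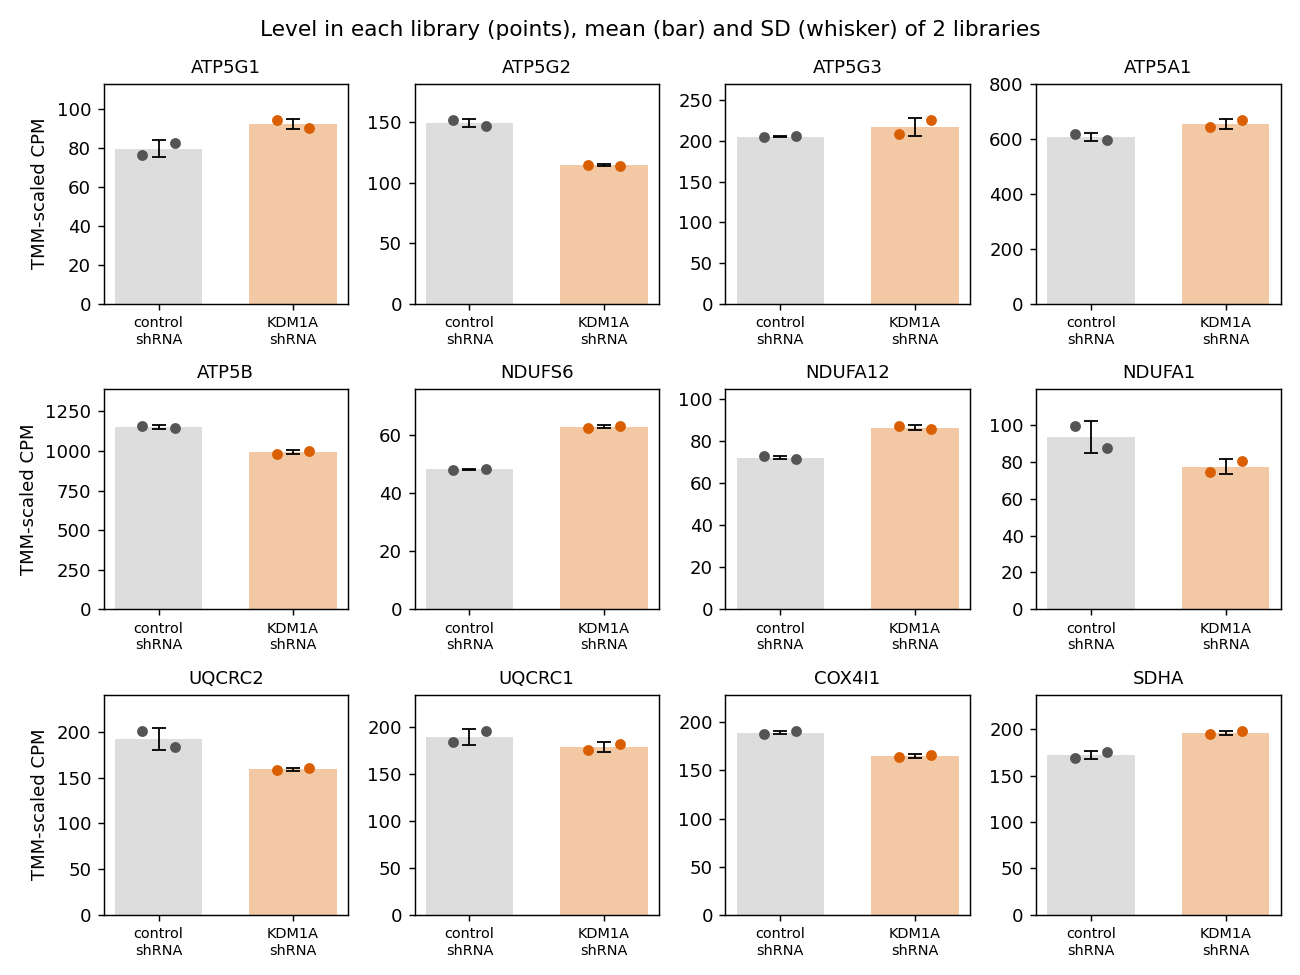
TMM-scaled CPM of 12 respiratory chain genes in each library (points), with the mean (bars, from 0) and SD (whiskers) of 2 libraries per group. ATP5G2 and ATP5B were called lower after knockdown and NDUFS6 and NDUFA12 higher, while UQCRC1 and ATP5G3 were not called. The groups do not overlap in any of the 12 genes, nor in 77.7% of all genes tested.

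In complex I, none of the 7 core subunits, which carry the flavin and iron-sulfur clusters or line the ubiquinone pocket, was called; all the calls fell on accessory subunits. NDUFV1, the NADH-binding flavoprotein, was at 149.0 and 149.7 CPM in the controls and 142.2 and 144.8 CPM after knockdown (−0.06, adjusted p = 0.24). NDUFS1, the large iron-sulfur subunit (−0.06, adjusted p = 0.20), and NDUFV2, which holds an iron-sulfur cluster (−0.11, 95% interval −0.22 to 0.01), lay slightly below the controls in both libraries, and NDUFS3 (0.04) overlapped with them. The 7 changes ran from −0.11 to 0.04, with a median of −0.06, and from −0.30 to −0.16 with the rescaling. Among the 29 accessory genes 6 were called higher and 4 lower.

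NDUFS6, a zinc-binding accessory subunit of the NADH-oxidising module (chromosome 5, 1801521 to 1816162, plus strand), showed the largest rise of the subunit genes. Its reads numbered 1290 and 1176 under control shRNA and 1499 and 1634 after knockdown, or 48.17 and 48.48 CPM against 62.59 and 63.33. The libraries of each group nearly coincided and the groups lay apart, at 130% of control (0.38, SE 0.05, edgeR adjusted p = 2.4e-05), and NDUFS6 was the only rise among the 19 that kept its call in all 14 alternatives. NDUFA12, of the same module (chromosome 12, 95289073 to 95397524, minus strand), was at 72.63 and 71.40 CPM against 87.05 and 85.46 CPM (0.26, SE 0.05, adjusted p = 0.00031), and NDUFB2, of the membrane arm, at 48.24 and 51.32 CPM against 61.25 and 58.13 CPM (0.26). The calls of NDUFA12 and NDUFB2 were lost with the rescaling alone (0.06 for each). NDUFB9 (0.20), NDUFA6 (0.18) and NDUFB1 (0.17) were called higher with adjusted p between 0.018 and 0.043. Leaving out either KDM1A shRNA library ended all 3 calls, control library 1 those of NDUFB9 (0.12) and NDUFA6 (0.13) and control library 2 that of NDUFB1 (0.10). The rescaling ended them as well, with NDUFB9 at 0.004, NDUFA6 at −0.02 and NDUFB1 at −0.03, and DESeq2 called none of the 3.

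Of the accessory genes 4 fell. NDUFA7, of the ubiquinone module (chromosome 19, 8373652 to 8386259, minus strand), was at 29.57 and 34.46 CPM in the controls and 26.26 and 25.97 CPM after knockdown (−0.29, SE 0.08, adjusted p = 0.0056). NDUFA1, of the membrane arm (chromosome X, 119005795 to 119010625, plus strand), was at 99.70 and 87.48 CPM against 74.78 and 80.38 CPM (−0.27, SE 0.06, adjusted p = 0.0017). For both genes the spread between the controls was larger than between the KDM1A shRNA libraries, and the groups did not overlap. NDUFB10 (−0.18, adjusted p = 0.037) and NDUFA9 (−0.13, adjusted p = 0.041) were called lower, and both calls were lost without either KDM1A shRNA library. NDUFB10 also lost it without control library 2 (−0.07), and NDUFA9 without control library 1 (−0.11). By module, 2 of 8 genes of the NADH module were called higher and 0 lower, 1 and 2 of 8 in the ubiquinone module, and 3 and 2 of 20 in the membrane arm.

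Complex II, succinate dehydrogenase, is the one complex wholly encoded in the nucleus, and its 4 genes spread to both sides. SDHA, the flavoprotein that oxidises succinate, was at 169.5 and 175.8 CPM in the controls and 194.9 and 198.0 CPM after knockdown (0.19, SE 0.04, adjusted p = 0.0010; −0.01 with the rescaling). SDHC, a membrane anchor, was at 55.08 and 59.28 CPM against 49.60 and 50.69 CPM (−0.19, SE 0.06, adjusted p = 0.012), a call lost in DESeq2 and without either KDM1A shRNA library. SDHB, the iron-sulfur subunit (−0.08), and SDHD, the other anchor (0.10), were not called, with 95% intervals within 1.25-fold in either direction. The pseudogenes SDHAP2 (30 and 23 reads against 41 and 50; 0.81, SE 0.26) and SDHAP3 (43 and 33 against 60 and 67; 0.78, SE 0.22) were the only genes of the pattern called at 1.5-fold or more. Both calls were lost in DESeq2, and that of SDHAP2 also without control library 2 or KDM1A shRNA library 2. SDHAP1 (72 and 70 against 102 and 75 reads) was not called (0.36), but was without KDM1A shRNA library 2 (0.62). Because only reads with a single alignment were counted, the split between SDHA and these near-identical copies is uncertain.

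In complex III, UQCRC2, core protein 2 (chromosome 16, 21964609 to 21994981, plus strand), fell. Its reads numbered 5375 and 4456 under control shRNA and 3787 and 4140 after knockdown, or 200.7 and 183.7 CPM against 158.1 and 160.4, 82.8% of control (−0.27, SE 0.05, edgeR adjusted p = 0.00014). Its partner UQCRC1, core protein 1, was at 183.8 and 195.6 CPM against 175.2 and 182.3 CPM and was not called (−0.09, adjusted p = 0.11). UQCRB, a small subunit, was higher (139 ± 2.50 to 157 ± 0.896 CPM; 0.18, adjusted p = 0.0017; −0.02 with the rescaling). Of the redox subunits, UQCRFS1, the Rieske iron-sulfur protein, was called higher (0.15, adjusted p = 0.032; −0.05 with the rescaling), and CYC1, cytochrome c1, was at 151.3 and 158.9 CPM against 169.3 and 163.9 CPM (0.10, adjusted p = 0.051). The UQCRFS1 call was lost without control library 2 or either KDM1A shRNA library. UQCRQ, UQCR10 and UQCR11 lay between 0.01 and 0.02 with overlapping groups. The hinge protein UQCRH (−0.06) and its near-identical copy UQCRHL (−0.18, adjusted p = 0.054), whose reads can be shared, summed to 131 and 123 CPM against 117 and 118 CPM.

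In complex IV, the 3 falls were in subunits present in most tissues. COX4I1, subunit 4, with a known role in assembly and in regulation by ATP (chromosome 16, 85832239 to 85840674, plus strand), was counted with 5039 and 4625 control reads and 3922 and 4290 after knockdown, or 188.2 and 190.7 CPM against 163.8 and 166.3 (−0.20, SE 0.04, edgeR adjusted p = 0.00053). COX5B, on the matrix side, fell from 92.6 ± 0.928 to 81.2 ± 4.28 CPM (−0.19, adjusted p = 0.0052; call lost without KDM1A shRNA library 1), and COX7A2 from 111 ± 5.45 to 101 ± 3.62 CPM (−0.14, adjusted p = 0.028; call lost without control library 1 or either KDM1A shRNA library). NDUFA4, named for complex I but later assigned to complex IV, rose from 77.1 ± 0.481 to 86.9 ± 4.72 CPM (0.17, adjusted p = 0.0097; −0.02 with the rescaling), a call lost without KDM1A shRNA library 2, and COX8A was called higher (0.15, adjusted p = 0.018; −0.05 with the rescaling), a call lost without control library 1 or either KDM1A shRNA library. COX5A, COX6A1, COX6B1, COX6C, COX7B and COX7C were not called and lay between −0.09 and 0.04.

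The isoforms of complex IV that are known from lung, muscle, testis or hypoxic cells were absent or near the limit of detection in both groups. COX4I2, COX6A2, COX7A1 and COX8C had 0 reads in every library, which allows up to 3 counts, or 0.112 to 0.125 CPM depending on the library. NDUFA4L2, a paralog of NDUFA4 known to be induced by hypoxia, had 2, 1, 1 and 1 reads. COX6B2 had 4, 10, 2 and 2 reads, and COX7B2 had 15, 9, 9 and 15, with no call. A change between isoforms was not detectable at this depth.

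The remaining genes of the name pattern are not subunits or could not be assigned cleanly. ATP5E, for the epsilon subunit, had 66, 34, 31 and 79 reads, and its processed pseudogene ATP5EP2 had 1661, 1192, 1574 and 1718; with near-identical sequence the 2 cannot be separated. ATP5EP2 was called higher (0.25, adjusted p = 0.016), a call lost without control library 2, which had its lowest level, and without either KDM1A shRNA library. COX4NB, the neighbour of COX4I1 (0.01), the supercomplex factor COX7A2L (−0.05), ATP5S (0.13) and ATP5SL (0.06) were not called. The readthrough transcripts NDUFC2-KCTD14 and ATP5J2-PTCD1 had 0 reads in every library, and ATP5L2 had 0, 0, 3 and 0.

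The KDM1A shRNA libraries lay above both controls in 31 of the 87 genes tested, where 38.1% of all genes did, and below both in 31, where 39.6% did. Groups were thus separated in 62 of 87, beside 77.7% of all genes tested.

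Among genes that build or feed the chain, calls again went in both directions, and single genes passed the range of the subunit genes. Of 16 complex I assembly factors 3 were called higher and 3 lower, of 21 for complex IV 4 and 2, of 6 for complex III 2 and 0, of 4 for complex II 2 and 2, and of the 5 assembly factors and inhibitor of complex V 1 and 2. The called shares were 37.5% for complex I, 28.6% for IV, 33.3% for III, 100% for II and 60% for V. Among all genes tested 56.1% were called, and the shares were not compared by a test. FAM36A, the complex IV assembly factor COX20, was counted with 563 and 490 control reads and 977 and 1138 after knockdown, and rose from 20.6 to 42.4 CPM (1.04, SE 0.07, adjusted p = 1.4e-08). In complex I assembly, C8orf38 (0.62) and ACAD9 (0.36) rose and ECSIT fell (−0.32); in complex II assembly, C6orf57 fell (−0.54). SDHAF2, which attaches the flavin to SDHA, was called higher (0.19; −0.01 with the rescaling) and SDHAF1 lower (−0.29), and leaving out KDM1A shRNA library 1 ended both calls, while leaving out control library 1 or KDM1A shRNA library 2 ended that of SDHAF1. The electron carrier CYCS was higher (169 to 185 CPM, 0.13, adjusted p = 0.012; −0.07 with the rescaling), a call lost without either KDM1A shRNA library.

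Of 13 genes of ubiquinone synthesis 4 were called higher and 4 lower, with COQ5 (22.1 to 13.7 CPM, −0.70, SE 0.09) and ADCK3 (down to 38.1 CPM, −0.58, SE 0.06) lowest in adjusted p. Of 20 genes of the tricarboxylic acid cycle, pyruvate entry included, 8 were called higher and 5 lower. IDH2 fell from 26.5 to 14.1 CPM (−0.91, SE 0.08, adjusted p = 4.3e-07), while FH (0.38), IDH3A (0.41) and the pyruvate carrier gene BRP44 (0.48) rose. Among 18 regulators of mitochondrial biogenesis 7 were called higher and 6 lower. The coactivator PPARGC1A was counted with 281 and 212 control reads and 394 and 430 after knockdown (0.78, SE 0.10, adjusted p = 1.5e-05), and the mitochondrial transcription factor TFAM rose from 99.8 to 120 CPM (0.27; 0.07 and not called with the rescaling). ESRRA, a nuclear receptor known as a partner of PPARGC1A, fell from 77.2 to 54.0 CPM (−0.51, SE 0.06) and TFB1M, a mitochondrial ribosomal RNA methyltransferase, from 20.7 to 11.9 CPM (−0.80, SE 0.09, adjusted p = 1.9e-06). The median changes of these 3 lists were 0.01, 0.08 and 0.06, and their called shares 61.5%, 65% and 72.2%, against 38.2% of the respiratory chain subunit genes and 56.1% of all genes; the shares were not compared by a test.

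**Figure D4:**
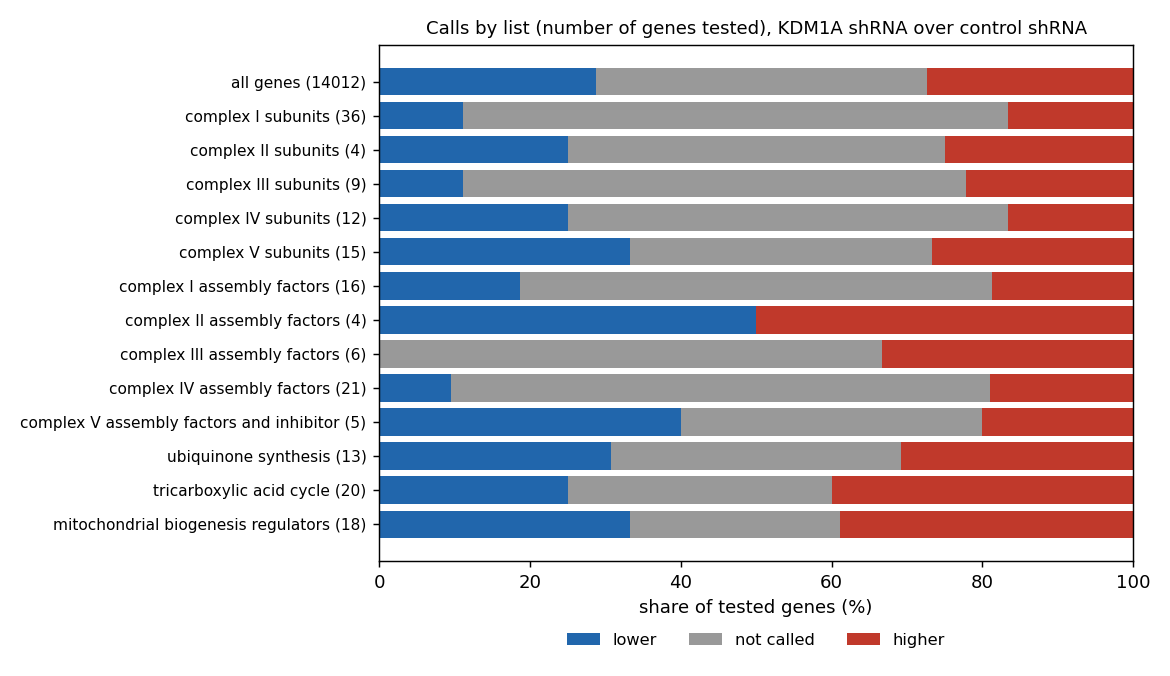
Share of tested genes (percent) called lower, not called and called higher at an edgeR adjusted p under 0.05 for all genes, the subunits of each complex and the related lists, with the number of genes tested in brackets. Not called genes make up 72.2% of complex I and 43.9% of all genes. With the rescaling to MDA-MB-231 genes the calls shift towards lower in both sets, but not equally. Of 87 respiratory chain genes 3 are then called higher and 56 lower, beside 12.7% and 51.7% of all genes.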

How the data were processed

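Each library's deposited file holds raw read counts by gene symbol; the authors made them with CASAVA 1.8.2, TopHat2 2.0.8b and HTSeq on hg19, per the submitters' processing notes. The annotation version and the strand setting are not given in the sources used here; antisense and overlapping genes cannot be told apart. The 5 summary lines of HTSeq (38.9% to 41.0% of each file's total) were left out. All genes were fitted together with edgeR 4.0.16 in R 4.3.3 (TMM, filterByExpr with minimum count 10 and total 15, quasi-likelihood F-test, group as the only term, Benjamini-Hochberg adjustment over 14012 genes, threshold 0.05); SE is the absolute log2 fold change over the square root of F. The fit was tested on simulated data. With 2 libraries per group the smallest two-sided p of an exact permutation test is 0.333, and none was run. Alternatives (14) were other scalings, filters, tools (DESeq2 1.42.0, limma-voom 3.58.1), the replicate block and each library left out. Genes are named if the name pattern finds them; of related lists, up to 4 with the smallest p. Members and lists were chosen with earlier results of these data known; a short NRF1 motif was added after the promoters had been seen. Positions are from GENCODE on GRCh37 and promoters from RefSeq on GRCh38.p14. The values of 1 gene are not reported here, though it is part of the counts.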

Additional observations from a re-analysis of the deposited data

How the results depend on the processing

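Of the 34 respiratory chain calls, 7 held under all 14 alternatives: the falls of ATP5G2, ATP5B, UQCRC2, COX4I1, NDUFA1 and NDUFA7 and the rise of NDUFS6. Of the 53 genes not called, 7 stayed uncalled under all 14. The lack of a call is thus no firmer than a call and does not show that a gene was unchanged. Setting the scale by the listed MDA-MB-231 genes moved most. It lowers every gene, so it can end a rise but not a fall, and it alone ended the calls of NDUFA12, NDUFB2, SDHA and UQCRB. It shifted all genes to 1774 higher and 7243 lower, a share of 19.7% higher among calls beside 48.7%, and the respiratory chain genes to 3 higher and 56 lower with a median of −0.181; the typical genes themselves had a median change of 0.20, with 14 called higher and 8 lower. Because this setting subtracts that median from each gene, it turned genes with small rises below 0. Such turns were counted only among the respiratory chain genes and the related-list genes followed through the alternatives, not among all genes tested. Of all 14012 genes tested, 6930 lay above 0 before the rescaling. Among the genes followed, 43 turned below 0, 39 of them respiratory chain genes: ATP5A1 (−0.087), ATP5C1 (−0.17), ATP5F1 (−0.10), ATP5G3 (−0.12), ATP5J2 (−0.006), ATP5L (−0.027), ATP5SL (−0.14), COX4NB (−0.18), COX6B1 (−0.19), COX6C (−0.16), COX8A (−0.049), NDUFA11 (−0.13), NDUFA4 (−0.024), NDUFA6 (−0.020), NDUFA8 (−0.18), NDUFB1 (−0.033), NDUFB5 (−0.18), NDUFB6 (−0.17), NDUFC1 (−0.18), NDUFS3 (−0.16), SDHA (−0.012), SDHAF2 (−0.005), UQCR10 (−0.19), UQCR11 (−0.18), UQCRB (−0.019), UQCRFS1 (−0.048) and UQCRQ (−0.19), and, with no call under either scaling, ATP5E (−0.024), ATP5S (−0.069), COX7B2 (−0.16), CYC1 (−0.095), NDUFA2 (−0.098), NDUFA3 (−0.11), NDUFA5 (−0.092), NDUFB11 (−0.11), NDUFB7 (−0.098), NDUFB8 (−0.10), NDUFC2 (−0.10) and SDHD (−0.10). The others were the related-list genes UQCC (−0.16), ATPIF1 (−0.055), CYCS (−0.069) and C14orf2 (−0.17). With a minimum mean of 5 CPM the respiratory chain median was −0.012, beside −0.002 for all genes tested. Of 82 respiratory chain genes 13 were then called higher and 20 lower, beside 28.9% and 29.2% of all genes. Upper quartile scaling gave 15 higher and 20 lower of 87, beside 24.9% and 31.4%. Which direction held more respiratory chain calls thus depended on the setting. DESeq2 called 11 respiratory chain genes higher and 9 lower, beside 21.4% and 22.2% of all genes tested. It ended 14 of the calls: those of ATP5EP2, ATP5I, COX7A2, NDUFA6, NDUFA9, NDUFB1, NDUFB10, NDUFB9, SDHAF1, SDHAF2, SDHAP2, SDHAP3, SDHC and UQCRFS1. With 1 library left out, 8 to 20 were higher and 7 to 18 lower, with a median of −0.012 to 0.036, fewest without KDM1A shRNA library 1 or 2. The lone library of a group is then assumed to vary like the other group. With the replicate number as a block, 20 respiratory chain genes were higher and 17 lower, beside 28.4% and 29.7% of all genes tested. Of the 87, 84 kept their side of the threshold and 3 not called without the block were called. The deviations of the libraries with the same number correlated at 0.01 over genes, so the numbers are not shown to pair the libraries. Changes under about 0.1 on the log2 scale are at the limit of what 2 libraries per group resolve, as the intervals show.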
